A study of Mus musculus with 14 samples.

Results

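Sgk1, Sgk3, Tsc22d3, Zbtb16, Klf9, Cebpd and Errfi1 encode kinases and regulators of transcription or signalling, most of which are known to be induced by glucocorticoid hormones. They were followed as a set of 7 genes among the 17097 genes measured on 14 arrays of mouse hypothalamus. The genes were chosen by symbol, selected on their fasted minus fed log2 differences on these same arrays, so their fasting differences are given as a description, with no p-value. Where calls of the fit are counted for fasting, the count stands beside the share of all genes called, and nothing is read from it. Each gene was read from the probe set that names it alone and has the highest mean over the 14 arrays, and its other probe sets are given beside it. The hormone itself was not measured.

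The hypothalami came from mice 12 weeks old on a mixed background of C57Bl/6J, FVB/N and 129. The groups were POMC-specific Mfn1 knockout mice (POMCMfn1KO) fasted for 16 h (n = 3), control mice fasted for 16 h (n = 3), knockout mice fed at random (n = 4) and control mice fed at random (n = 4). Mfn1 encodes mitofusin 1, a protein that fuses mitochondria, and the knockout is directed at cells that express Pomc. In the hypothalamus these are neurons, which are few among the cells of the whole tissue. The labels do not say whether other cells lost Mfn1. The labels give neither the alleles of the control mice nor the number of mice behind an array, and the p-values therefore reflect only the spread between samples, which may be technical. In whole tissue, fewer cells of a type and less RNA per cell cannot be told apart.

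The deposited values were log2 expression values, and the array medians lay between 4.98 and 5.05. Mfn1 lay between 9.04 and 9.11 in knockout fasted arrays and between 9.05 and 9.07 in control fasted arrays. It lay between 9.03 and 9.12 in knockout fed arrays and between 8.99 and 9.10 in control fed arrays, so its level in whole tissue gave no check of the genotype labels. Of the 15 hypothalamic marker genes measured, 13 exceeded the median of the background probe sets, 3.63, by more than 1 log2 unit on every array. Pmch, the precursor of melanin-concentrating hormone, averaged 12.42 and Hcrt, the orexin precursor, averaged 10.55, whereas the transcription factor genes Nkx2-1 at 4.17 and Otp at 3.83 lay near the background.

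Glucocorticoids are steroid hormones of the adrenal cortex that are secreted in a daily rhythm and rise with stress and fasting. They bind the glucocorticoid receptor, which moves to the nucleus, binds DNA at glucocorticoid response elements and changes the transcription of nearby genes. The hypothalamus both drives this hormone axis, through corticotropin-releasing hormone, and is a target of its negative feedback. The kinases SGK1 and SGK3 are activated downstream of phosphoinositide 3-kinase, as is AKT, and phosphorylate regulators of ion channels and FOXO transcription factors. TSC22D3, also called GILZ, ZBTB16, KLF9 and C/EBP delta act on transcription, and ERRFI1, also called MIG6, binds and inhibits the epidermal growth factor receptor.

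The palindromic glucocorticoid response element, searched as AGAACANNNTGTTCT, reads the same on both strands. In the 250 bases before the annotated gene starts of the RefSeq promoter table (GRCm38.p6), it was found in 3 of 32851 windows, or 0.00913% of them, and 1 of these lay before a start of Sgk1. Its 6-base site TGTTCT, searched on both strands (AGAACA on the other strand) and contained in every full match, was found in 16.1% of all windows. The table held 12 windows of 4 of the genes, namely 6 of Sgk1, 3 of Tsc22d3, 2 of Errfi1 and 1 of Klf9. The 6-base site was present in 4 of these windows, which belonged to Sgk1 and Tsc22d3. For each of these genes, 1 window that holds a match is shown, with matches in capitals, and for Sgk1 it is the window with the full element. The windows of Errfi1 and Klf9 held no match and are not shown.
Sgk1, chr10:21993640-21993889, + strand, ending at the base before the start at 21993890: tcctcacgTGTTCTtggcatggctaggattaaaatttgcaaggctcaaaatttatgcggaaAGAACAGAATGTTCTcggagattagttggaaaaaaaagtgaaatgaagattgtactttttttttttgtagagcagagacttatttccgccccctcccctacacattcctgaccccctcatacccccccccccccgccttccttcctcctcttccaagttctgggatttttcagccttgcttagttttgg
Tsc22d3, chrX:140600523-140600772, - strand, ending at the base before the start at 140600522: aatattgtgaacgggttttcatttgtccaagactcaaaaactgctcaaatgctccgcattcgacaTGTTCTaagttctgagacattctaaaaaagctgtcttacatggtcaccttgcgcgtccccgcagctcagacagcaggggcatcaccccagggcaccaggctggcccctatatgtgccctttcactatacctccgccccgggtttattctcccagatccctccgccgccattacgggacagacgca
The full element of the Sgk1 window, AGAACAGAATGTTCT, covers bases 189 to 175 before the start, and a separate 6-base site lies at bases 242 to 237. The 6-base site of the Tsc22d3 window lies at bases 185 to 180 before the start. These matches describe the letters of the windows, and no binding was measured.

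Sgk1, the serum- and glucocorticoid-regulated kinase that raises the surface level of sodium channels by phosphorylating the ubiquitin ligase NEDD4L, is on chromosome 10 and had 1 probe set. It read 10.48, 11.48 and 11.00 in knockout fasted arrays 1 to 3 and 11.27, 11.60 and 11.76 in control fasted arrays 1 to 3. The fed values were 9.37, 9.41, 9.35 and 10.79 in knockout arrays 1 to 4 and 9.42, 9.25, 9.22 and 9.29 in control arrays 1 to 4. Every control fasted array was above every control fed array, but knockout fed replicate 4 stood above the other fed arrays and above knockout fasted replicate 1. The fasted minus fed difference was 1.26 ± 0.31 in knockout mice, a 2.39-fold ratio, and 2.25 ± 0.31 in control mice, a 4.75-fold ratio, with errors given as the standard error (SE) of the fit.

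Sgk3, a relative of SGK1 that is held on endosomes by its lipid-binding domain, is on chromosome 1 and had 3 probe sets. Its highest probe set read 8.28, 9.69 and 7.57 in knockout fasted arrays and 8.91, 9.02 and 9.54 in control fasted arrays. On the fed arrays the gene read 7.18, 7.38, 7.46 and 7.62 in knockout arrays and 7.43, 7.14, 7.22 and 7.35 in control arrays. Knockout fasted replicate 2 was the highest array of all and replicate 3 lay within the range of the knockout fed arrays, while the control groups did not overlap. The fasting difference was 1.10 ± 0.35 (SE) in knockout mice and 1.87 ± 0.35 in control mice.

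Tsc22d3, whose leucine zipper protein binds subunits of NF-kappaB and AP-1 and dampens inflammatory transcription, is on the X chromosome and had 3 probe sets. The probe set used read 10.33, 11.05 and 10.23 in knockout fasted arrays and 10.81, 10.79 and 11.24 in control fasted arrays. The fed values were 9.86, 9.59, 9.76 and 10.24 in knockout arrays and 9.74, 9.92, 9.86 and 9.78 in control arrays. Knockout fasted replicate 3 lay just below knockout fed replicate 4, so the knockout groups overlapped, whereas the control groups were apart. The fasting difference was 0.67 ± 0.19 (SE) in knockout mice and 1.12 ± 0.19 in control mice.

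Zbtb16, a BTB zinc-finger repressor also called PLZF, is on chromosome 9 and had 2 probe sets. The probe set used read 6.94, 8.49 and 6.69 in knockout fasted arrays and 7.47, 7.56 and 8.65 in control fasted arrays. Its fed readings were 5.96, 6.22, 5.66 and 6.51 in knockout arrays and 6.46, 5.85, 5.65 and 6.14 in control arrays. All 6 fasted arrays were above all 8 fed arrays, which held for no other gene of the set. The fasting difference was 1.29 ± 0.40 (SE) in knockout mice and 1.87 ± 0.40 in control mice.

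Klf9, a Krüppel-like zinc-finger factor that is also induced by thyroid hormone, is on chromosome 19 and had 5 probe sets. The probe set used read 11.32, 11.75 and 11.31 in knockout fasted arrays and 11.49, 11.56 and 11.73 in control fasted arrays. On the fed arrays it read 11.13, 11.14, 11.09 and 11.32 in knockout arrays and 11.15, 11.04, 11.07 and 11.13 in control arrays. The control groups did not overlap, while knockout fed replicate 4 equalled knockout fasted replicate 1 and was just above replicate 3. The fasting difference was 0.29 ± 0.10 (SE) in knockout mice and 0.50 ± 0.10 in control mice, the smallest of the set in both genotypes.

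Cebpd, which encodes the leucine-zipper factor C/EBP delta of the acute-phase response, is on chromosome 16 and had 1 probe set. It read 5.70, 7.19 and 6.79 in knockout fasted arrays and 6.96, 7.31 and 7.24 in control fasted arrays. The fed readings were 4.59, 5.17, 5.37 and 5.82 in knockout arrays and 6.05, 5.44, 5.71 and 5.53 in control arrays. Knockout fasted replicate 1 was below knockout fed replicate 4 and control fed replicates 1 and 3, and the other 5 fasted arrays were above every fed array. The fasting difference was 1.32 ± 0.32 (SE) in knockout mice and 1.49 ± 0.32 in control mice.

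Errfi1, whose product MIG6 blocks the kinase domain of the epidermal growth factor receptor, is on chromosome 4 and had 1 probe set. It read 8.99, 9.98 and 9.30 in knockout fasted arrays and 9.43, 9.79 and 10.23 in control fasted arrays. In fed mice it read 8.97, 9.07, 8.96 and 9.21 in knockout arrays and 9.02, 9.10, 9.00 and 8.95 in control arrays. Knockout fasted replicate 1 was within the range of the fed arrays, replicate 3 was just above it, and the control groups were apart. The fasting difference was 0.37 ± 0.20 (SE) in knockout mice and 0.80 ± 0.20 in control mice.

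**Figure D1:**
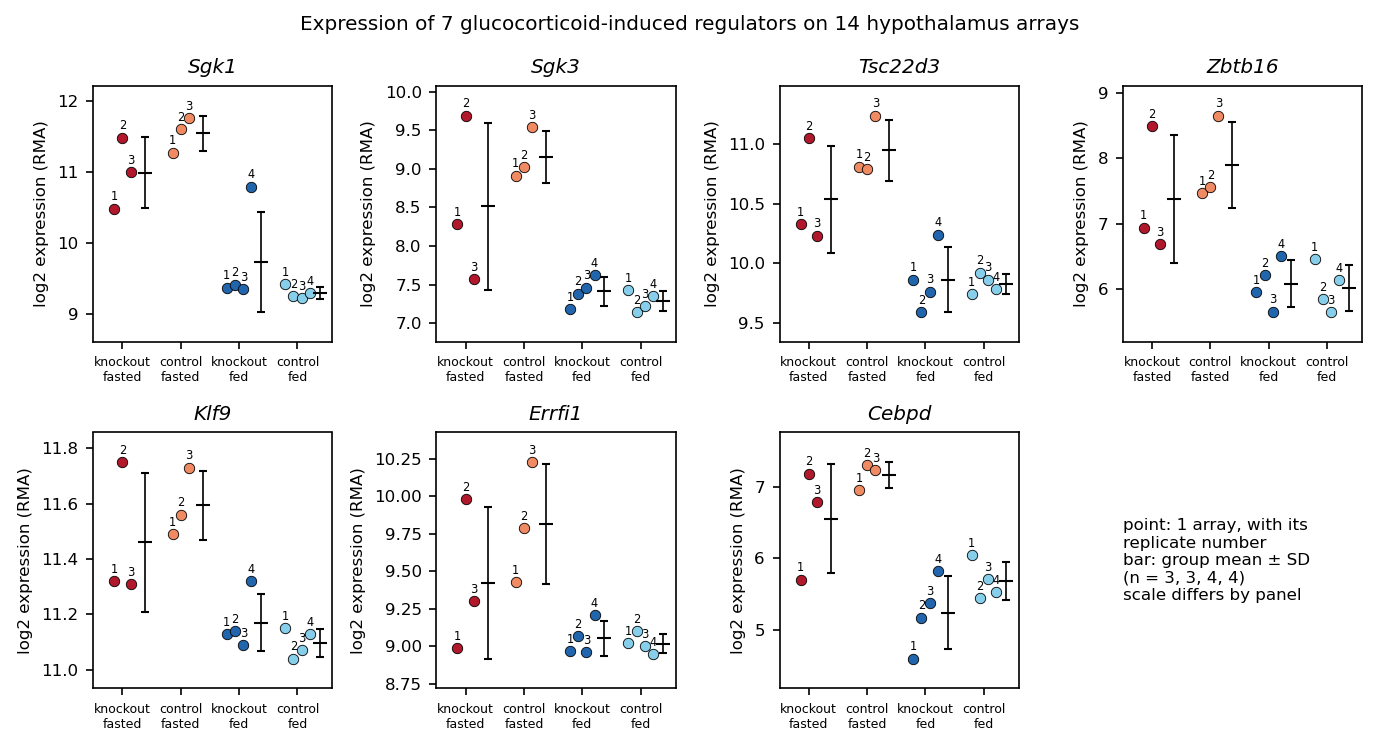
Log2 expression of the 7 genes (y axes, 1 panel per gene, scales differ) on each array, with the arrays of the 4 groups along the x axis, each point numbered by its replicate, and bars giving the mean ± SD of 3, 3, 4 and 4 arrays. Knockout fasted replicate 2 is the highest of its group in all 7 panels, and knockout fed replicate 4 is the highest fed array in every panel but that of Cebpd.

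Over the 7 genes, the median fasting difference was 1.10 in knockout mice, 1.49 in control mice and 1.40 averaged over genotypes, against medians of 0.008, -0.005 and 0.003 over all genes tested. With limma and an adjusted p threshold of 0.05, all 7 were called higher in fasted mice in the averaged comparison, in which 5.14% of all genes were called higher. In control mice 6 were called, all but Errfi1, where 1.64% of all genes were called higher. In knockout mice 0 of 7 were called and 0.468% of all genes were called higher, while 6 of the 7 had an unadjusted p below 0.05, as did 16.5% of all genes. These differences chose the genes, so the counts are no evidence of a response.

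The control fasted and control fed arrays did not overlap in 7 of 7 genes, as was the case, in the same direction, for 7.94% of all genes. The knockout fasted arrays were above all knockout fed arrays in 1 of 7, Zbtb16, as in 7.37% of all genes. Knockout fed replicate 4 was the highest of its group in all 7 genes. Without it, a choice made after seeing these values, the count in knockout mice was 6 of 7, all but Errfi1. The share of all genes was then 11.1%. Leaving out the highest array cannot lower such a count, so nothing is read from the change. Over both genotypes together, 1 of 7 genes had no overlap between fasted and fed arrays, as in 1.92% of all genes.

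The numbers in the sample titles were split here into a low and a high series. All 6 fasted arrays and knockout fed replicate 1 carry low numbers. The titles do not mark this split, and a wider gap between numbers lies inside the low series. No source used here says what the series stand for. Knockout fed replicate 1 lay inside the range of the other 7 fed arrays in 6 of the 7 genes. The exception was Cebpd, which read 4.59 on that array, below the range of 5.17 to 6.05 on the other fed arrays. With the series as a covariate, an estimate that rests on this array alone, the averaged fasting differences were still positive in every gene, at 2.17 for Sgk1 and 0.44 for Klf9, but 0 of 7 were called, and over all 17097 genes 15 were. In control mice every fasted array is in the low series and every fed array in the high series, so fasting and series cannot be told apart there. Whether the series has a part in the differences was not tested beyond this.

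The other probe sets of Sgk3, Tsc22d3, Zbtb16 and Klf9 mostly showed the same direction. The remaining probe sets of Sgk3 had fasting differences of 0.65 and 0.67 in knockout mice and of 1.56 and 1.97 in control mice. A second probe set of Tsc22d3, at a mean of 10.11, gave 0.77 in knockout and 1.21 in control mice. A dim one, at a mean of 4.82, gave 0.39 in knockout and 0.45 in control mice. The second probe set of Zbtb16, at a mean of 4.95, gave 0.67 in knockout and 0.92 in control mice. Of the 4 further probe sets of Klf9, 3 gave 0.32 to 0.62 in knockout and 0.58 to 0.83 in control mice. The last one, at a mean of 4.05 close to the background median of 3.63, gave 0.07 in knockout and 0.00 in control mice.

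**Figure D2:**
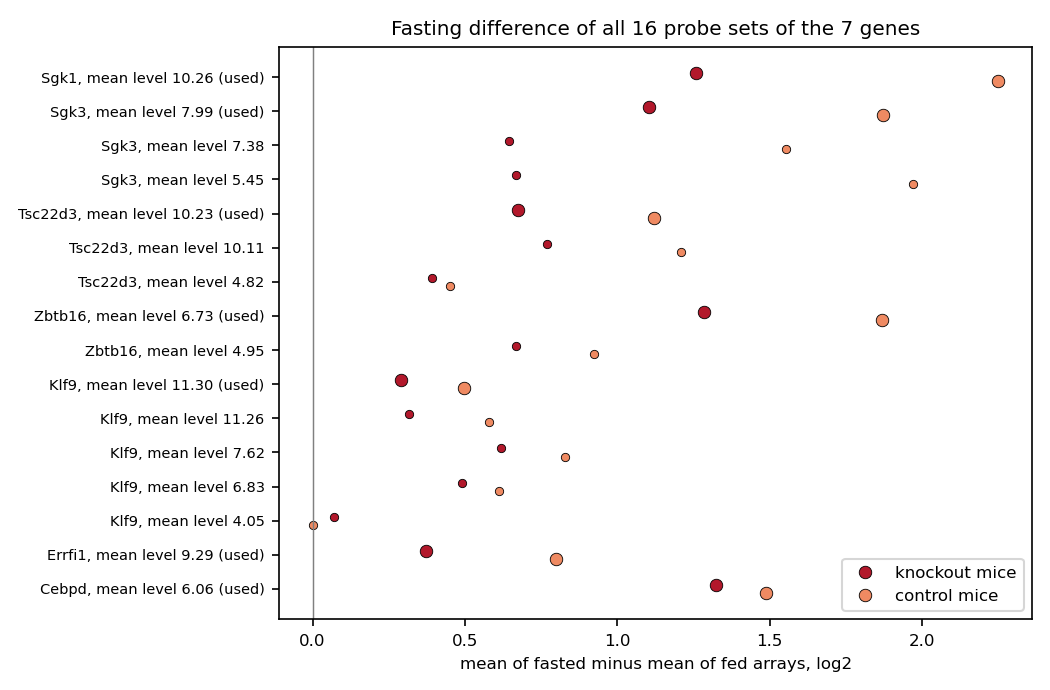
Fasted minus fed difference of group means (x axis, log2) for all 16 probe sets of the 7 genes (rows), with knockout mice in dark red and control mice in orange, and large points for the probe sets used. The difference is larger in control mice for every probe set but the dimmest one of Klf9, at 0.07 in knockout and 0.00 in control mice.

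The knockout fasted arrays were spread widely in these genes. Their SD (n = 3) was 0.50 for Sgk1, 1.08 for Sgk3, 0.45 for Tsc22d3, 0.98 for Zbtb16, 0.25 for Klf9, 0.77 for Cebpd and 0.51 for Errfi1. All 7 exceeded the 90th percentile of the SD over all genes in that group, 0.244, where the median gene had 0.101. In control fasted arrays the SD of the 7 genes had a median of 0.25 and 5 of them exceeded that group's 90th percentile of 0.229. The SD was larger in knockout than in control fasted arrays in 7 of 7 genes, as it was in 53.1% of all genes. The genes were chosen on fasting differences that include these arrays, and they varied together within groups. The counts of genes with a large spread are therefore a description of these arrays only. With 3 arrays in each group, the difference in spread was not tested.

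In fed mice, the SD of the 7 genes had a median of 0.28 in knockout arrays (n = 4), where 4 genes exceeded the 90th percentile of 0.213. In control fed arrays (n = 4) it had a median of 0.09, below the median gene's 0.10, and 2 genes exceeded the 90th percentile of 0.213. Zbtb16 and Cebpd were these genes, at 0.35 and 0.27. The spread of Sgk1 in knockout fed arrays, 0.71, came from replicate 4, since the other 3 arrays lay between 9.35 and 9.41.

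**Figure D3:**
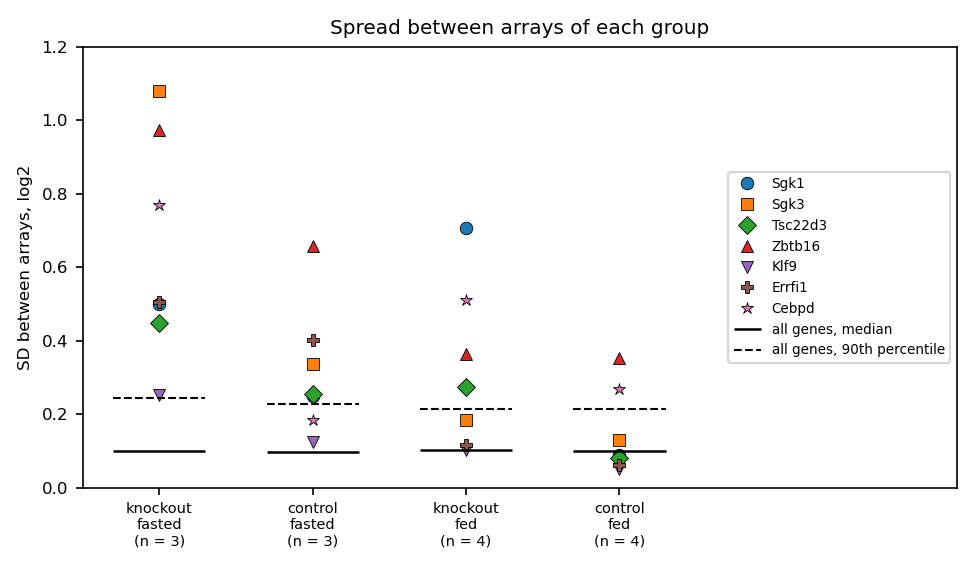
SD between the arrays of each group (y axis, log2) for the 7 genes (symbols) in the 4 groups (x axis, n below each), with a solid line at the median and a dashed line at the 90th percentile of the SD over all 17097 genes. In knockout fasted arrays all 7 symbols lie above the dashed line at 0.244, with Sgk3 highest at 1.08.

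The same arrays were high or low across the set. Knockout fasted replicate 2 was the highest of its group in 7 of 7 genes, against 35.9% of all genes. Among the 6 fasted arrays, knockout fasted replicate 1 was the lowest in 3 genes, Sgk1, Errfi1 and Cebpd, and replicate 3 was the lowest in the other 4. Over all genes, these arrays were the lowest of the fasted arrays in 17.3% and 17.8%. Control fasted replicate 3 was the highest fasted array in 4 genes, Sgk1, Tsc22d3, Zbtb16 and Errfi1, against 19.0% of all genes. Among the 8 fed arrays, knockout fed replicate 4 was the highest in 6 of 7 genes, against 16.7% of all genes, and Cebpd, highest in control fed replicate 1, was the exception.

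The mean of the 7 genes, each centred on its mean over 14 arrays, gives 1 value per array. It was 0.03, 1.11 and 0.15 in knockout fasted arrays and 0.64, 0.82 and 1.22 in control fasted arrays. In fed mice it was -0.69, -0.55, -0.60 and -0.05 in knockout arrays and -0.37, -0.59, -0.59 and -0.53 in control arrays. Knockout fasted replicates 1 and 3 were thus nearer to knockout fed replicate 4 than to any control fasted array. Across the 21 pairs of the 7 genes, Pearson's r over the 14 arrays had a median of 0.92 and a range of 0.84 to 0.98, which includes the fasting difference. After subtraction of the 4 group means, the median was 0.76 and the range 0.46 to 0.95. The pairs share the same arrays, so the values describe these arrays only.

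Other genes known to be induced by glucocorticoids, a list of 42 genes of which 37 were measured, were ordered likewise on the arrays. This list was also chosen with fasting results of these arrays known. Knockout fasted replicate 2 was the highest of its group in 34 of the 37 genes, against 35.9% of all genes. Knockout fed replicate 4 was the highest fed array in 25 of the 37, against 16.7% of all genes. The mean of the 37 centred genes was 0.24, 0.82 and 0.22 in knockout fasted arrays and 0.55, 0.70 and 0.86 in control fasted arrays. In fed mice it was -0.47, -0.50, -0.46 and -0.14 in knockout arrays and -0.38, -0.45, -0.43 and -0.57 in control arrays.

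Marker lists of other cell types differed on some of the arrays that stood apart, and on other arrays as well. The 7 choroid plexus markers measured had a mean centred value between 0.83 and 0.84 in knockout fasted arrays and between -1.44 and -0.07 in control fasted arrays. In knockout fed arrays it was -1.30, 0.96, 0.99 and 1.56, highest in replicate 4, and in control fed arrays 0.73, -1.24, -1.49 and -1.10. The 7 cortex and hippocampus markers read 0.29 in knockout fed replicate 4 and 0.48 in control fed replicate 1, and the remaining fed arrays lay between -0.06 and 0.01. The 10 oligodendrocyte markers were at -0.115, -0.374 and 0.103 in knockout fasted replicates 1 to 3, and between -0.187 and -0.110 in control fasted arrays. The 9 microglia markers were at -0.124, -0.341 and 0.010 in knockout fasted replicates 1 to 3, and between -0.316 and -0.171 in control fasted arrays. With a covariate for the choroid plexus score, added after seeing the data, 0 of 7 genes were called in any genotype comparison, as were 0 to 4 of all 17097 genes. In that fit 7 of 7 were called in the averaged fasting comparison, as were 1774 of all genes, and the difference of Sgk1 was 1.71, against 1.75 without the covariate. The genotype difference of Cebpd with the covariate was -0.80 in fed and -0.97 in fasted mice, against -0.44 and -0.61 without it, and that of Sgk1 in fed mice was 0.23, against 0.44. The part of the other marker lists in the array order was not tested.

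**Figure D4:**
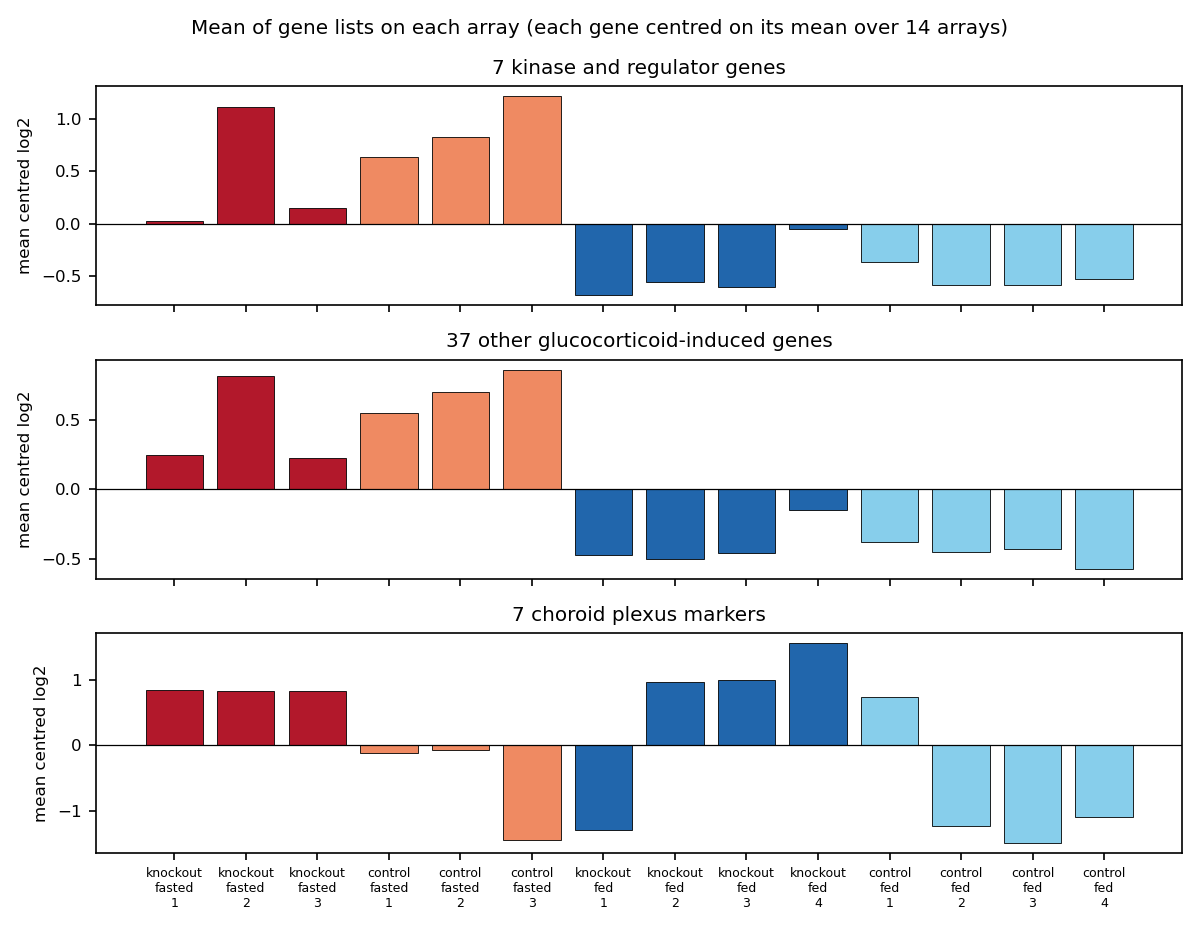
Mean centred log2 value (y axis) of the 7 genes, of 37 other glucocorticoid-induced genes and of 7 choroid plexus markers on each of the 14 arrays (x axis, knockout fasted, control fasted, knockout fed and control fed). The upper panels share the high knockout fasted replicate 2 and the least negative fed value in knockout fed replicate 4, at -0.05 and -0.14, while the choroid plexus markers lie between 0.83 and 0.84 on all knockout fasted arrays.

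The comparison of genotypes asks whether the POMC-specific knockout of Mfn1 was accompanied by a different level of these genes. In fed mice, 0 of 7 genes were called (limma, adjusted p = 0.995 for each), as were 0.00585% of all genes. None had an unadjusted p below 0.05, against 4.62% of all genes. Sgk1 averaged 9.73 ± 0.71 in knockout and 9.30 ± 0.09 in control fed arrays (SD, n = 4 each), a difference of 0.44 ± 0.29 (SE) with a 95% interval of -0.18 to 1.05. Without replicate 4 of the knockout fed arrays, the difference of Sgk1 was 0.08. Without the same array, the fed difference of Tsc22d3 changed sign to -0.09, that of Zbtb16 to -0.08 and that of Errfi1 to -0.02, from 0.04, 0.06 and 0.04 with all arrays. Cebpd averaged 5.24 ± 0.51 in knockout and 5.68 ± 0.27 in control fed arrays (SD, n = 4 each), a difference of -0.44 ± 0.29 (SE) with an interval of -1.08 to 0.19. Sgk3 and Klf9 differed by 0.12 ± 0.32 and 0.07 ± 0.09.

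In fasted mice the 7 genes had a lower mean in knockout than in control arrays, with a median difference of -0.52, and 0 of 7 were called (limma, adjusted p = 1.0 for each). Of all genes, 0% were called in this comparison. None of the 7 had an unadjusted p below 0.05, against 3.86% of all genes, and in none were the arrays of the genotypes apart, against 7.64% of all genes. Sgk3 averaged 8.51 ± 1.08 in knockout and 9.16 ± 0.34 in control fasted arrays (SD, n = 3 each), a difference of -0.64 ± 0.37 (SE) with a 95% interval of -1.44 to 0.16. Tsc22d3 averaged 10.54 ± 0.45 in knockout and 10.95 ± 0.25 in control fasted arrays, a difference of -0.41 ± 0.20 with an interval of -0.84 to 0.03. The interval of Sgk1, around a difference of -0.56 ± 0.33, ran from -1.27 to 0.16, and that of Cebpd, around -0.61 ± 0.34, from -1.34 to 0.12. Zbtb16 differed by -0.52 ± 0.42, Errfi1 by -0.39 ± 0.22 and Klf9 by -0.13 ± 0.11. Knockout fasted replicates 2 and 3 weighed on these values, since the difference of Sgk3 was -1.23 without replicate 2 and -0.17 without replicate 3, and that of Zbtb16 was -1.08 and -0.18. When each array was left out in turn, the difference ranged from -0.80 to -0.30 for Sgk1, from -0.67 to -0.26 for Tsc22d3, from -0.92 to -0.18 for Cebpd, from -0.67 to -0.18 for Errfi1 and from -0.28 to -0.06 for Klf9. The intervals of all 7 include 0, and those of Sgk1, Sgk3, Zbtb16 and Cebpd also include reductions of more than 1 log2 unit. The fasted values took part in choosing the genes, which varied together within groups, so their shared direction is a description.

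The averaged genotype difference was not called in any of the 7 genes, with an adjusted p of 0.999 for each, as 0.00585% of all genes were called. Cebpd had the largest one, -0.53 ± 0.22 (SE), with a 95% interval of -1.01 to -0.04 and was the only one with an unadjusted p below 0.05, against 4.65% of all genes.

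The interaction, given as the knockout minus the control fasting difference, tests whether the response differed between genotypes. It was negative for all 7 genes and called for 0 of them (limma, adjusted p = 1.0 for each), as for 0% of all genes. Sgk1 had -0.99 ± 0.44 (SE) with a 95% interval of -1.94 to -0.05, and was the only one of the 7 with an unadjusted p below 0.05, against 3.82% of all genes. Without knockout fed replicate 4 it was -0.64. The interaction was -0.77 ± 0.49 for Sgk3, -0.58 ± 0.56 for Zbtb16, -0.45 ± 0.27 for Tsc22d3, -0.43 ± 0.28 for Errfi1 and -0.21 ± 0.14 for Klf9. With each array left out in turn, it ranged from -1.24 to -0.64 for Sgk1, from -1.36 to -0.30 for Sgk3 and from -1.14 to -0.20 for Zbtb16. For Cebpd it was -0.16 ± 0.45, and it became 0.27 when knockout fasted replicate 1 was left out and 0.03 when knockout fed replicate 4 was. The median interaction of the 7 genes was -0.45, against 0.012 over all genes. A smaller rise in knockout mice was thus the direction of the estimates but was not larger than the spread between arrays after adjustment. The interaction uses the fasted and fed values that chose the genes, and the genes varied together within groups. The shared sign of the 7 genes is therefore a description of these arrays only.

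**Figure D5:**
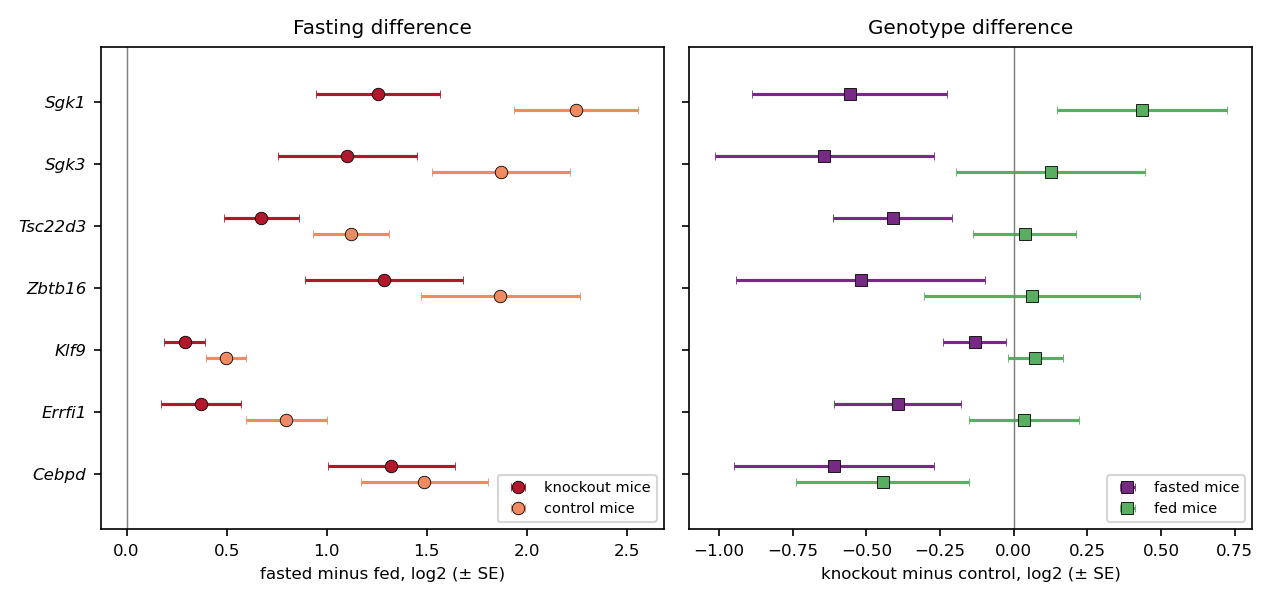
Log2 differences (x axes) of the 7 genes (rows) with bars of 1 SE. The left panel gives fasted minus fed in knockout (dark red) and control mice (orange), and the right panel gives knockout minus control in fasted (purple) and fed mice (green). The fasted genotype differences lie between -0.64 and -0.13, all left of 0, and none passed the threshold.

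Relatives and partners of the 7 genes were read from lists for the averaged fasting comparison. In this comparison the median of all genes was 0.003, and 5.14% of all genes were called higher and 4.90% lower. From here on, a gene of a list is said to rise or fall only where it was called, and the remaining genes were not called in either direction. Of the 37 other glucocorticoid-induced genes, 31 rose and 0 fell, with a median of 0.88. This list was chosen with fasting results of these arrays known. Its fasting differences and counts are therefore a description, and no p-value is given for its genes. The other lists were also chosen with earlier results of these data known, so nothing is read from their fasting p-values. The lipid droplet gene Plin4 rose by 3.41 ± 0.25 (SE), the cell cycle inhibitor gene Cdkn1a by 3.07 ± 0.35 and the sulfotransferase gene Sult1a1 by 2.54 ± 0.14. The lipid transporter gene Mfsd2a rose by 1.85 ± 0.12, the arrestin-related Arrdc2 by 1.77 ± 0.24 and Phyhd1 by 1.54 ± 0.10. In knockout mice alone 13 of the 37 were called higher, where 0.468% of all genes were, and in control mice alone 27, where 1.64% of all genes were. At an unadjusted p below 0.05 the counts were 28 in knockout and 31 in control mice, against 16.5% and 17.5% of all genes. The fasted genotype difference of the list had a median of -0.22, and 0 of 37 were called in that comparison or in the interaction, whose median was -0.26.

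The adjusted p-values given here and for the families below only show which genes passed the threshold. They are a description, since the lists were chosen with earlier results of these data known. Of 25 measured activators, targets and relatives of the SGK kinases, 2 rose and 2 fell, with a median of -0.03. Foxo3, a transcription factor that SGK1 phosphorylates, rose by 0.23 ± 0.05 (SE, adjusted p = 0.0104, limma), and Scnn1g, the gamma subunit of the epithelial sodium channel, by 0.23 ± 0.06 (adjusted p = 0.0386). The kinase gene Akt2 fell by 0.25 ± 0.07 (adjusted p = 0.0377) and Wnk1, a kinase that activates SGK1, fell by 0.17 ± 0.04 (adjusted p = 0.0294). Of the 9 genes of corticosteroid receptors, their chaperones and hormone-converting enzymes, Fkbp5, a chaperone that lowers the affinity of the receptor for its hormone, rose by 1.46 ± 0.17. Nr3c1, the glucocorticoid receptor gene, fell by 0.21 ± 0.05 (adjusted p = 0.0257), and the list's median was -0.06.

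The families of the transcription regulators were read in the same way. Tsc22d4 was the 1 of 3 TSC22 genes that rose, by 0.56 ± 0.06 (SE), in a family with a median of 0.13. Of 13 Krüppel-like genes, with a median of 0.02, Klf15 rose by 0.69 ± 0.15. Klf13 rose by 0.60 ± 0.11 (adjusted p = 0.00455, limma) and Klf12 fell by 0.19 ± 0.05 (adjusted p = 0.0198). Of 4 C/EBP genes, with a median of 0.28, Cebpb rose by 0.48 ± 0.11 (adjusted p = 0.0164) and Cebpa by 0.41 ± 0.11 (adjusted p = 0.0313). Of 31 BTB zinc-finger genes, with a median of -0.01, Bcl6, Zbtb7b and Zbtb2 rose by 0.30 to 0.47 and Zbtb40 fell by 0.41 ± 0.10 (adjusted p = 0.0214). Klf15, Tsc22d4, Bcl6 and Fkbp5 are also counted in the glucocorticoid list.

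Around Errfi1, 0 of 17 genes of the epidermal growth factor receptor family, its ligands and its inhibitors were called higher and 2 lower. Called or not, 5 differences were positive and 12 negative, with a median of -0.04. Egfr, the receptor that MIG6 inhibits, fell by 0.69 ± 0.14 (SE, adjusted p = 0.00759, limma). Socs5, an inhibitor of this receptor, fell by 0.15 ± 0.04 (adjusted p = 0.0326).

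The genes most like the set over the 14 arrays, by Pearson's r with its mean centred value, were Nfkbia at 0.99, Ddit4 at 0.98, Cdkn1a at 0.98, Net1 at 0.98 and Dbndd2 at 0.98. Fkbp5, Sesn1, Mertk, Slc2a1 and Txnip followed, all at 0.97. Nfkbia, which encodes the NF-kappaB inhibitor, was also the closest after subtraction of the group means, at 0.97, ahead of Itpk1 at 0.94, Sesn1 and Spsb1 at 0.93 and Mertk at 0.93. Its fasting difference was 1.10 in knockout and 1.63 in control mice, on the log2 scale. These genes were taken as the highest of all genes, and the arrays are shared.

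The cell type markers in the averaged fasting comparison are given beside these results. Among glial lists, 4 of 12 astrocyte markers rose and 1 fell (median 0.08), 2 of 10 oligodendrocyte markers rose and 3 fell (median -0.05), and 0 of 4 markers of their precursors were called (median -0.07). Of 9 microglia markers, 0 rose and 5 fell, with a median of -0.35, among them P2ry12, which fell by 0.77 ± 0.10 (SE). The microglia list score lay between -0.34 and 0.01 in knockout fasted, -0.32 and -0.17 in control fasted, 0.03 and 0.15 in knockout fed and 0.18 and 0.27 in control fed arrays. Of the vascular markers, 3 of 10 endothelial genes fell (median -0.04) and 2 of 5 pericyte genes fell (median -0.21). Among neurons 1 of 10 markers fell, Elavl4, and of 15 hypothalamic markers 1 rose, Npy, by 0.78 ± 0.14 (SE). Of 6 tanycyte markers Dio2 rose, by 0.86 ± 0.15 (SE), and of 7 cortex and hippocampus markers Prox1 fell, by 0.31 ± 0.08 (SE). None of 7 choroid plexus, 6 ependymal, 6 pituitary or 3 blood markers was called, with medians of 0.24, 0.01, -0.01 and -0.18. Apart from the choroid plexus covariate above, the part of these cell types in the differences of the 7 genes was not tested.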

How the data were processed

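RNA of 14 hypothalamus samples was measured on 1-colour Affymetrix arrays from 150 ng of total RNA each. The deposited values are log2 expression values, and RMA and affy, without versions, are the tools named in the submitters' processing notes. RMA corrects background, normalises arrays to 1 distribution and summarises the probes of a set, which compresses small differences of dim probe sets. The genome build behind the probe sets was not given in the sources used here. Values were used as deposited, and 0 columns were left out. At most 2.9% of values were identical between 2 arrays, and r between arrays lay between 0.9908 and 0.9968. The number of arrays limits the precision.

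Genes were named through the platform annotation (28898 of 45141 probe sets name 1 gene, 551 several and 15692 none), and 99.1% of gene IDs matched RefSeq. Differences were fitted on all 17097 genes with limma 3.58.1 in R 4.3.3, using lmFit with a mean for each group, contrasts and eBayes (10 residual degrees of freedom), two-sided, with Benjamini-Hochberg adjustment over all genes and a threshold of 0.05. The script was tested on simulated data with 200 genes changed.

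The 7 genes and the 22 lists (283 genes, 249 measured) were chosen with earlier results of these data known. The lists are the other glucocorticoid-induced genes, the SGK pathway, the TSC22, KLF, C/EBP, ZBTB and epidermal growth factor receptor families, the corticosteroid receptors, and markers of hypothalamus, neurons, astrocytes, oligodendrocytes and their precursors, microglia, endothelium, pericytes, choroid plexus, ependyma, tanycytes, pituitary, cortex and hippocampus, and blood. Named were the 7 genes, up to 6 called genes of a list with the largest averaged fasting difference (of a family, by the smallest p), and the 10 and 5 genes most like the set over arrays and over residuals. A list score is the mean of its genes' log2 values, each centred over the 14 arrays. Alternatives were a filter on dim genes, the mean of probe sets, a fit of the compared groups only, a trended and robust prior, array weights, median scaling, the number series as covariate and each array left out.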

Additional observations from a re-analysis of the deposited data

Results flagged for a closer look

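Sgk1 read 10.79 in knockout fed replicate 4, far above the other 3 arrays of that group, which lay between 9.35 and 9.41. The gap to the nearest array was 0.958 of the range of the group. This was the only one of the 14 group readings of the 7 genes in fed mice that stood apart by Dixon's 95% criterion, which chance exceeds in about 1 group in 20. The same array was the highest of its group in all 7 genes. Without it, the fasting difference of Sgk1 in knockout mice was 1.61, against 1.26 with it, and the genotype difference in fed mice was 0.08, against 0.44. The fasting values are a description, since they chose the gene.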

How the results depend on the processing

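For fasting, the counts of the 7 genes called are set beside the counts over all 17097 genes and support nothing, since fasting chose the genes. In the averaged comparison 7 were called under every alternative run, with 938 to 2137 of all genes, except with the number series as covariate, where 0 of 7 and 15 of all genes were called. In control mice 0 were called with that covariate, with 2 of all genes, and 2 to 7 when single arrays were left out. The lowest counts were 2 without control fasted replicate 3 (216 of all genes, against 472 with all arrays) and 3 without control fed replicate 2 or 3 (282 and 289 of all genes). In knockout mice 0 to 1 were called when single arrays were left out, namely Cebpd without knockout fasted replicate 1 (59 of all genes), Sgk3 without knockout fasted replicate 3 (363) and Sgk1 without knockout fed replicate 4 (116). With knockout fed replicate 4 and knockout fasted replicate 2 both left out, a choice made after seeing the data, 1 was called (41 of all genes). In the genotype comparisons and the interaction 0 of the 7 passed under all alternatives, with 0 to 6 of all genes. Fed genotype differences near 0 changed sign for Tsc22d3 (-0.006 with array weights, -0.088 without both arrays, and -0.088 to 0.128 over single arrays left out), Zbtb16 (-0.005 with the choroid plexus covariate, -0.078 without both arrays, and -0.078 to 0.208 over single arrays) and Errfi1 (-0.017 without both arrays, and -0.017 to 0.066 over single arrays). The interaction of Cebpd ranged from -0.480 to 0.265 over single arrays left out. The cause of these changes was not tested beyond the array left out. Over all genes, 119 were called for fasting in knockout mice, against 10 in a fit of those groups alone, 18 without knockout fasted replicate 2 and 341 with the trended and robust prior. No paired analysis was possible because no title number occurs in more than 1 sample.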
